A study of Mus musculus with 10 samples.

Results

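The genes described here are those of MHC class II antigen presentation, 10 genes chosen by name from the 42989 in the deposited tables: H2-Aa, H2-Ab1, H2-Eb1, Cd74, Ciita, H2-DMa, H2-DMb1, H2-DMb2, H2-Oa and H2-Ob. They were measured by total RNA sequencing in the distal ileum of 10 wild-type (WT) male mice of the strain DIO C57BL/6J, obese from their diet. From 10 weeks of age, 5 mice were gavaged for 4 weeks with taurodeoxycholic acid (TDCA), a bile acid that gut bacteria form and the liver joins to taurine, in a dose of 10 mg/kg, and 5 received the same volume of water. The submitters describe the 5 mice of each group as biological replicates. They are numbered 1 to 5 in each group, and each gave 1 library from a piece of whole ileum, which can hold epithelium, immune cells, stroma and muscle. All 10 genes passed the filter on low values, at least 10 normalized counts (reads divided by a size factor per library) in at least 5 libraries.

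MHC class II molecules carry peptides from the endosomes of a cell to its surface, where CD4+ T cells read them. An α and a β chain assemble on the invariant chain, which leads them to the endosome and blocks their groove. There H2-DM removes the last piece of the invariant chain and favours peptides that bind well, and H2-O, found mainly in B cells, restrains H2-DM. B cells, dendritic cells and macrophages carry these molecules, and in the small intestine epithelial cells do too, largely under interferon gamma, which acts by inducing the transactivator CIITA. In C57BL/6 mice the α chain gene of the second class II molecule, I-E, is not expressed, so that its β chain H2-Eb1 is made without a partner. The table held H2-Ea (ENSMUSG00000036322), that α chain gene, at 0 in 7 of 10 libraries and at no more than 1.20 normalized counts in the others. It was added after its values were seen.

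The promoters of the class II genes share a layout, an X box bound by the RFX complex with a Y box bound by NF-Y downstream of it, on which CIITA is assembled. The RefSeq promoter table (GRCm38.p6, not the build GRCm39 named in the submitters' processing notes) held 7 of the 10 genes. Shown are the 4 that matched both letter patterns given next, because they include the neighbouring copies H2-DMb1 and H2-DMb2, whose transcripts differ below. Each run is the 200 bases before the start site, 5′ to 3′, with matches to AAC, any 2 bases, then ATGATG (X box core) and to ATTGG or its complement CCAAT (Y box core) in capitals.
H2-Eb1 (chr17:34305667-34305866, plus strand): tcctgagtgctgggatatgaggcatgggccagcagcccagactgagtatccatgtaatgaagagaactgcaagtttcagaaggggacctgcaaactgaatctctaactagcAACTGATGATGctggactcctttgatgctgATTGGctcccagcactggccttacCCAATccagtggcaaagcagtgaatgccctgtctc
H2-DMb1 (chr17:34152991-34153190, plus strand): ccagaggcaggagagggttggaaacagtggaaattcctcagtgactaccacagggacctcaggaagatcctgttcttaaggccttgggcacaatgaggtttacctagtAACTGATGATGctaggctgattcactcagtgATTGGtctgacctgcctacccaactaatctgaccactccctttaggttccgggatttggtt
H2-DMb2 (chr17:34145049-34145248, plus strand): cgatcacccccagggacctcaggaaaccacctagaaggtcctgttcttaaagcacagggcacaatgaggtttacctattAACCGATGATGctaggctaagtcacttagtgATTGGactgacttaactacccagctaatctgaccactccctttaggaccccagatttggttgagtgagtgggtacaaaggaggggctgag
H2-Ob (chr17:34238705-34238904, plus strand): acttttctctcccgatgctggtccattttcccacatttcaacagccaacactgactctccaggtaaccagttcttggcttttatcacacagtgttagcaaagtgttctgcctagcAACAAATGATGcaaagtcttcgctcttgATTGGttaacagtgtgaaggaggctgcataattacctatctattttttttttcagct
In these 4 promoters the X box core stood 17 to 20 bases upstream of the Y box core. The X letters were chosen after these promoters were read, so the match in the genes shown is no finding. On both strands, 0.1% of the 32851 promoters of the table held the X letters in this window, and 29.3% held the Y letters. The 2 H2-DMb promoters were identical at 81.9% of aligned bases (140 identical and 31 mismatched), with 58 gapped positions left out. The other pairs aligned had 56.1% (H2-Aa with H2-Eb1) to 70.6% (H2-DMb2 with H2-Eb1). The Y letters were also present in H2-Aa (from position −48), H2-Oa (from −43) and 1 of the 2 promoters listed for H2-DMa (from −198). A match describes the letters and is not evidence of binding, and a promoter without a match may still hold a box with other letters.

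The libraries held 27349003 to 44342245 reads on genes, and 3 reads, the limit that a count of 0 would allow, were worth 2.57 to 3.60 normalized counts. None of the 10 genes was at 0 in any library. All 10 smooth muscle markers had a log2 fold change above 0 in TDCA mice, with a summed level of 134069 to 237815 normalized counts against 55296 to 181236 in water mice. All 10 epithelial markers were below 0, with sums of 262579 to 621314 against 534622 to 798777. No gene of either list passed the test (limma, 0 of 10 each, with 7 muscle and 1 epithelial markers at an unadjusted p under 0.05). Over all genes tested in limma, 11% had an unadjusted p under 0.05 and 47.9% a log2 fold change above 0. In bulk tissue, fewer cells of a type and less RNA per cell cannot be told apart.

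The chains of the class II molecules were abundant and did not differ between treatments beyond the spread between mice. H2-Aa (ENSMUSG00000036594), the α chain of I-A, stood at 789, 1209.7, 770.2, 1024 and 2058 normalized counts in water 1 to 5, and at 1469, 1851, 1411, 923 and 1421 in TDCA 1 to 5. Water 5 was the highest of the 10 mice, the other water mice lay at or below the TDCA mice except TDCA 4, and the ranges overlapped. The means were 1170.2 ± 528 in water and 1415 ± 329.8 in TDCA mice (SD, n = 5 each), a log2 fold change of 0.34 (SE 0.26, 95% interval −0.23 to 0.91, limma adjusted p = 0.635). On the linear scale that interval runs from 0.851 to 1.88-fold.

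The β chain gene H2-Ab1 (ENSMUSG00000073421) ranged from 1066 to 3029 normalized counts in water and from 1284 to 2415 in TDCA mice, with a log2 fold change of 0.27 (SE 0.28). H2-Eb1 (ENSMUSG00000060586) ranged from 967 to 2336 and from 899 to 2089.7, with a log2 fold change of 0.28 (SE 0.27). Both followed H2-Aa, with water 5 highest and TDCA 4 the lowest of its group. Per kilobase of transcript, the ratio of H2-Aa to H2-Ab1 was 0.735 ± 0.195 in water and 0.751 ± 0.0572 in TDCA mice, and that of H2-Eb1 to H2-Ab1 was 0.560 ± 0.1003 and 0.561 ± 0.0639 (SD, n = 5 each). Over the 10 mice the first ratio ran from 0.519 in water 3 to 1.03 in water 4, and the second from 0.434 to 0.659.

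Cd74 (ENSMUSG00000024610), which encodes the invariant chain, was the most abundant of the 10 genes per length. It stood at 2332, 4508, 2807, 2498 and 7127 normalized counts in water 1 to 5, and at 4587, 5439, 4968, 2288 and 3759 in TDCA 1 to 5. The lowest mouse of all was TDCA 4 and the highest water 5, so the TDCA range lay almost wholly inside the water range. Its log2 fold change was 0.20 (SE 0.32, 95% interval −0.51 to 0.91, limma adjusted p = 0.832). The ratio of Cd74 to H2-Ab1 per kilobase stayed between 1.51 and 2.02 in all 10 mice.

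Ciita (ENSMUSG00000022504), the transactivator that switches the other genes on, stood at 142, 234, 160.0, 215 and 674 normalized counts in water 1 to 5. In TDCA 1 to 5 it stood at 295, 407, 231, 196 and 379. Water 5 held more than any other mouse, and TDCA 1, TDCA 2 and TDCA 5 lay above the remaining water mice. The log2 fold change was 0.28 (SE 0.38, limma adjusted p = 0.797), and without water 5 it was 0.66, also without passing.

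The genes of the peptide editor H2-DM fell into 2 kinds. H2-DMa (ENSMUSG00000037649), its α chain, ranged from 112 to 266 normalized counts in water and from 155 to 227 in TDCA mice, 2.39-fold from the lowest to the highest of 10 mice. The β chain is encoded by a pair of neighbouring copies. H2-DMb1 (ENSMUSG00000079547) stood at 57.7, 109.9, 79.5, 78.9 and 188 normalized counts in water 1 to 5 and at 139, 166, 131, 55.7 and 116 in TDCA 1 to 5. H2-DMb2 (ENSMUSG00000037548) stood at 15.6, 66.1, 14.0, 45.4 and 381 in water 1 to 5 and at 37.6, 109, 22.7, 56.6 and 165 in TDCA 1 to 5. Both copies were highest in water 5 and low in water 1, but they parted in other mice: TDCA 3 held a middling amount of H2-DMb1 and little H2-DMb2, and in TDCA 4 H2-DMb1 was the lowest of all while H2-DMb2 was higher than in 5 other mice. H2-DMb2 spanned 27.3-fold over the 10 mice and H2-DMb1 3.38-fold.

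Per kilobase, the ratio of H2-DMb2 to H2-DMb1 ran from 0.166 to 1.92 in water and from 0.164 to 1.34 in TDCA mice. It was above 1 in water 5 and TDCA 5 and below 1 in the other 8 mice. Of the 50-base stretches of the coding transcripts (GENCODE M21), 27.2% of those of H2-DMb1 also occur in H2-DMb2. Of those of H2-DMb2, 21.2% occur in H2-DMb1 and 24.8% in any other gene. The sources used here do not say how reads that fit both copies were counted, so the split between the copies is uncertain by an unknown amount. H2-Eb1, Ciita, H2-DMa and H2-Oa overlap gene models on the opposite strand in that annotation, and whether counting used strand is not stated either. On the same strand, H2-DMa overlaps the gene model CR974462.3 and Cd74 overlaps Mir5107.

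H2-O, the inhibitor of H2-DM, varied like H2-DMb2. H2-Ob (ENSMUSG00000041538), its β chain, stood at 22.8, 67.3, 31.1, 109.9 and 516 normalized counts in water 1 to 5, and at 77.9, 181, 26.2, 102 and 228 in TDCA 1 to 5. H2-Oa (ENSMUSG00000024334), its α chain and the least abundant of the 10 per length, stood at 7.21, 15.7, 15.04, 13.1 and 73.8 in water 1 to 5 and at 22.8, 37.8, 12.2, 23.1 and 35.5 in TDCA 1 to 5. Water 5 held more than any TDCA mouse of both, and TDCA 3 was the lowest TDCA mouse. From lowest to highest mouse H2-Ob spanned 22.6-fold and H2-Oa 10.2-fold, against a median of 2.02-fold over the 17507 genes tested, computed after adding 1. A smaller span than that of H2-DMb2, H2-Ob and H2-Oa was seen in 99.2%, 99.0% and 97.2% of genes. For H2-Aa, H2-Ab1, H2-Eb1 and H2-DMa that share was 61.9 to 72.3%.

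**Figure D1:**
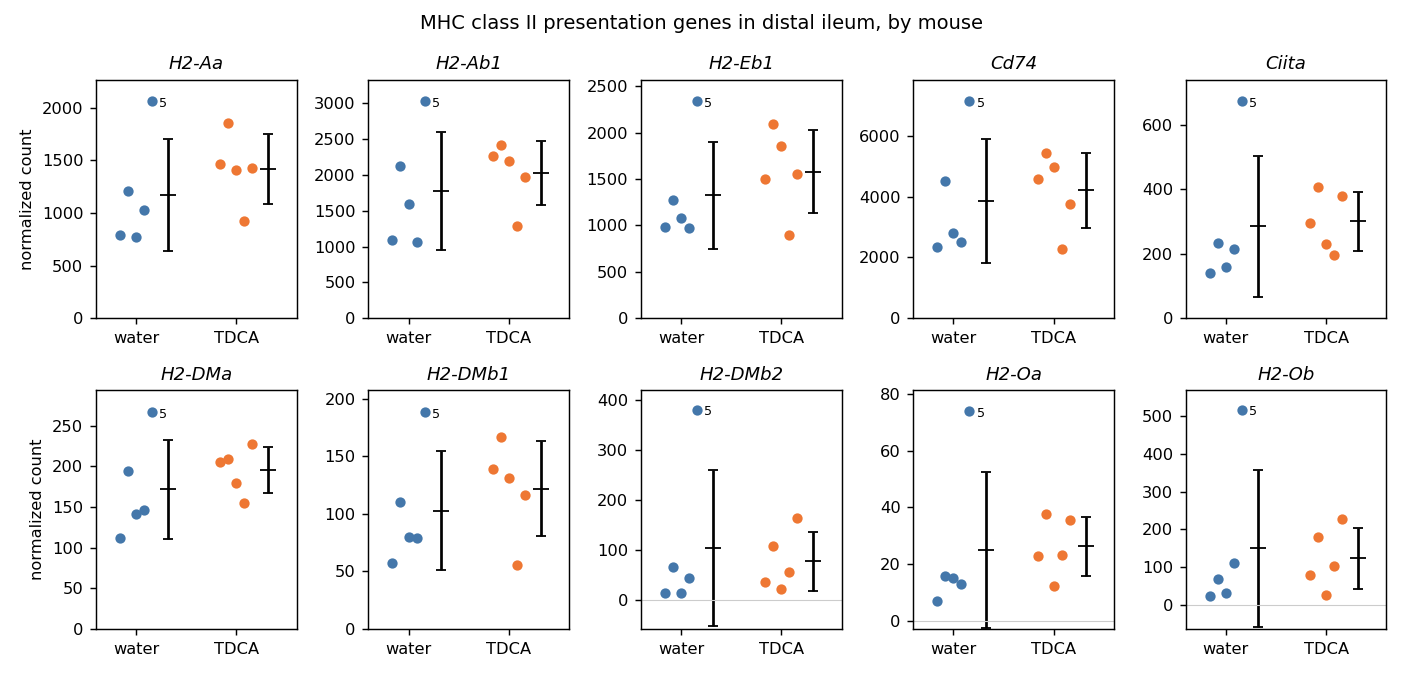
Normalized count of each of the 10 genes (vertical axes) by treatment (horizontal axes), 1 point per mouse, with the mean and SD as a black bar beside the points and water 5 marked. Water 5 is the highest of the 10 mice in all 10 panels, and the groups overlap in all 10.

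Per kilobase of the longest coding transcript, the mean levels over 10 mice in normalized counts ran in the order Cd74 (2859), H2-Ab1 (1570.3), H2-Aa (1146), H2-Eb1 (871), H2-DMa (91.6), H2-DMb1 (80.0), H2-DMb2 (61.6), H2-Ob (51.0), Ciita (48.8) and H2-Oa (23.5). The first 4 places were kept in nearly every mouse: Cd74 exceeded H2-Ab1 in 10 of 10, H2-Ab1 exceeded H2-Aa in 9, and H2-Aa exceeded H2-Eb1 in 10. Between H2-DMa and Ciita the order changed from mouse to mouse. H2-DMa exceeded H2-DMb1 in 7 of 10 mice, H2-DMb1 exceeded H2-DMb2 in 8, H2-DMb2 exceeded H2-Ob in 6, and H2-Ob exceeded Ciita in 4.

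The comparison of TDCA with water asks whether 4 weeks of the bile acid changed class II transcripts in the ileum. Limma on log2(normalized count + 1) called 0 of the 10 genes at an adjusted p under 0.05, and 0 of 17507 genes in all (0%, smallest adjusted p = 0.448). At an unadjusted p under 0.05 limma had 0 of the 10 genes and 1919 of all genes (11%). Without water 5 it had 5 of the 10, H2-Aa, H2-Eb1, Ciita, H2-DMa and H2-Oa, and 1437 of 17367 genes (8.27%), with 0 past the adjusted threshold. Water 5 was the highest of the 10 mice for all 10 genes, so leaving it out raised each of their log2 fold changes. With any other single library left out, limma had 0 of the 10 at that unadjusted threshold. The edgeR quasi-likelihood test also called 0 of the 10 and 0 of 17507 (0%, with 0 of the 10 and 1755 of all genes, 10%, at an unadjusted p under 0.05). DESeq2 was run here on whole reads recovered from the table. It gave no adjusted p for H2-Oa and called 0 of the other class II genes. Of all 13800 genes with an adjusted p it called 25 (0.181%), of which 3 were higher in TDCA mice (0.0217%). At an unadjusted p under 0.05 it had 0 of the 10 and 5.15% of 42949 genes. The authors' deposited table also has 25 of 13800 genes (0.181%) past 0.05, none of the 10 among them, and no adjusted p for H2-Oa. The ranges of the groups overlapped for 10 of 10 genes, and over all genes 1.4% had ranges without overlap.

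All 10 log2 fold changes in limma were above 0, from 0.20 for Cd74 to 0.44 for H2-Oa, with a median of 0.28 against −0.01 over all genes tested, of which 47.9% were above 0. The genes move together within a mouse, so these are not 10 separate observations. The adjusted p ranged from 0.635 to 0.902. The 95% intervals ran from −0.22 to 0.70 for H2-DMa, the narrowest, and from −1.61 to 2.29 for H2-DMb2, the widest, which is 0.327 to 4.91-fold. Adding a covariate for the smooth muscle markers gave a median of 0.01, with 6 of 10 genes above 0. All 10 of those markers were themselves above 0 in TDCA mice, with 0 called, so this covariate and the treatment overlap. Leaving out both water 1 and TDCA 5 gave a median of 0.06, with 7 of 10 genes above 0. Without water 1 the median was 0.10, without TDCA 2 0.16, and without water 5 0.55 and without TDCA 4 0.43.

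For H2-DMb2 and H2-Ob the direction differed between tools. The authors' deposited table gives a log2 fold change of −0.42 for H2-DMb2 and −0.28 for H2-Ob, against 0.34 (SE 0.88) and 0.32 (SE 0.86) in limma. For the other 8 genes the authors' deposited table has values above 0, from 0.05 for H2-Oa to 0.27 for H2-Aa. The mean of H2-Ob was 149.5 ± 208 in water and 123 ± 80.9 in TDCA mice (SD, n = 5 each), while the median was 67.3 in water and 102 in TDCA mice.

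**Figure D2:**
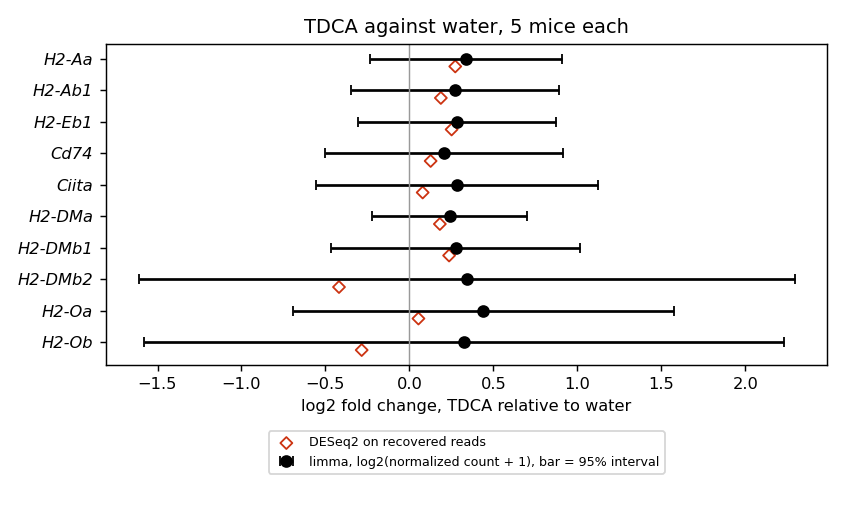
Log2 fold change of TDCA relative to water (horizontal axis) for the 10 genes (vertical axis), from limma as filled points with 95% intervals and from DESeq2 as open diamonds. All 10 intervals span 0, and the diamonds of H2-DMb2 and H2-Ob lie below 0.

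The spread between mice of H2-Ob, H2-DMb2 and H2-Oa followed markers of B cells, which carry class II and are the main cells of Peyer's patches. The 10 B cell markers (among them Cd79a, Cd79b, Ms4a1, Pax5, Cr2, Fcer2a, Blk, Fcrla and Spib) were found in every library, and 0 of 10 passed between treatments (8 above 0, median log2 fold change 0.29). Their summed level was 162, 608, 208, 532 and 4471 normalized counts in water 1 to 5, and 452, 1395, 149, 689 and 1868 in TDCA 1 to 5. Water 5 stood far above the rest, followed by TDCA 5 and TDCA 2, and water 1, TDCA 3 and water 3 were lowest. Cr2, a complement receptor of B cells and the most abundant marker of the list, averaged 226 ± 374 in water and 211 ± 191 in TDCA mice (SD, n = 5 each). Blk, a B cell kinase, averaged 44.6 ± 68.0 and 32.9 ± 23.0, although its log2 fold change was 0.61 (SE 1.03).

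The B cell score, the mean centred log2 level of these markers, was compared with each class II gene over the 10 mice, among 96 relations tested by permutation with Benjamini-Hochberg adjustment. H2-Ob had a Pearson correlation of 0.99 with the score (permutation p = 1e-05, the smallest that 100000 resamples can give, adjusted p = 0.00032) and a Spearman correlation of 0.94 (permutation p = 0.0002). For H2-DMb2 the values were 0.98 (permutation p = 1e-05) and 0.95 (permutation p = 0.00014), and for H2-Oa 0.93 (permutation p = 0.00017) and 0.93 (permutation p = 0.00037). Without water 1 and water 5, the 2 mice farthest from the median score, Pearson's r was 0.98 for H2-Ob, 0.96 for H2-DMb2 and 0.84 for H2-Oa. Ciita had r = 0.89 (permutation p = 0.00057, adjusted p = 0.00547) and rho = 0.77 (permutation p = 0.013, adjusted p = 0.0692), with r = 0.74 without those mice. Each treatment alone has 5 mice, too few for a correlation.

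The other 6 genes had lower correlations with the score. H2-DMa had r = 0.79 (permutation p = 0.00689, adjusted p = 0.0436; rho = 0.81, adjusted p = 0.0502), and r = 0.57 without water 1 and water 5. Pearson's r was 0.53 for H2-Ab1, H2-Eb1 and Cd74, 0.56 for H2-DMb1 and 0.71 for H2-Aa, and 0 of these 5 passed after adjustment. Without water 1 and water 5, r was 0.07 for H2-Ab1 and 0.07 for Cd74. Ratios within a mouse compare the genes directly. They were taken between values of log2(normalized count + 1), so the size factor cancels only nearly, least so for H2-Oa. The B cell score still carries that factor. H2-DMb2, H2-Ob and H2-Oa vary most in their ratios, so these correlations are not separate from those of the single genes. The log2 ratio of H2-DMb2 to H2-DMb1 had r = 0.92 with the B cell score (permutation p = 0.00024, adjusted p = 0.00384; rho = 0.92, permutation p = 0.00048), and r = 0.90 without the same 2 mice. The ratio of H2-Ob to H2-DMa had r = 0.96 (permutation p = 1e-05, adjusted p = 0.00032; rho = 0.93, permutation p = 0.0003), and 0.93 without them, and that of H2-Oa to H2-DMa r = 0.89 (adjusted permutation p = 0.00547; rho = 0.88, permutation p = 0.00175), and 0.76 without them. The ratio of Ciita to Cd74 had r = 0.78 (permutation p = 0.00818, adjusted p = 0.0436; rho = 0.75, permutation p = 0.0173, adjusted p = 0.0874), and 0.78 without them. The ratio of Cd74 to H2-Ab1 had r = 0.22 (permutation p = 0.543; rho = 0.13, permutation p = 0.732).

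**Figure D3:**
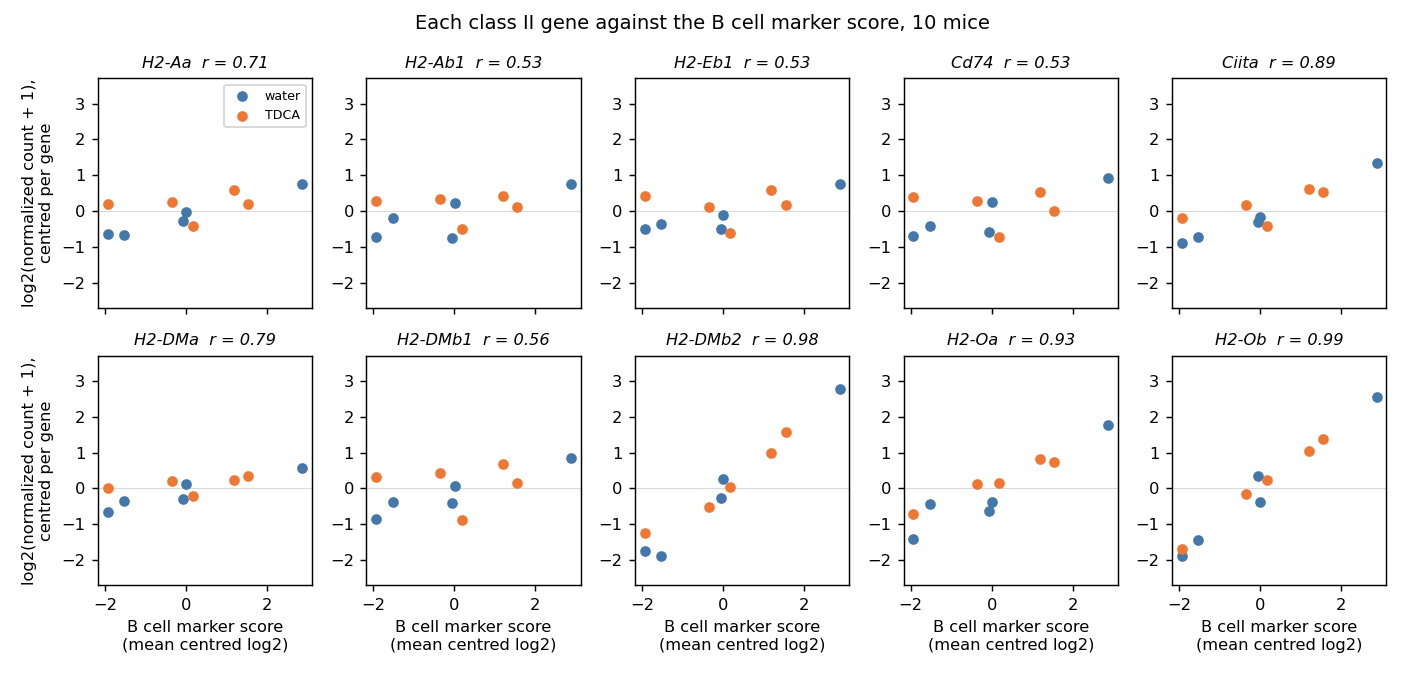
Each class II gene (vertical axis, log2 level centred per gene) against the B cell marker score (horizontal axis), 1 point per mouse, with Pearson's r over 10 mice. H2-DMb2, H2-Oa and H2-Ob rise along the score over the 10 mice, with r from 0.93 to 0.99, and H2-Ab1, H2-Eb1 and Cd74 have r = 0.53.

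**Figure D4:**
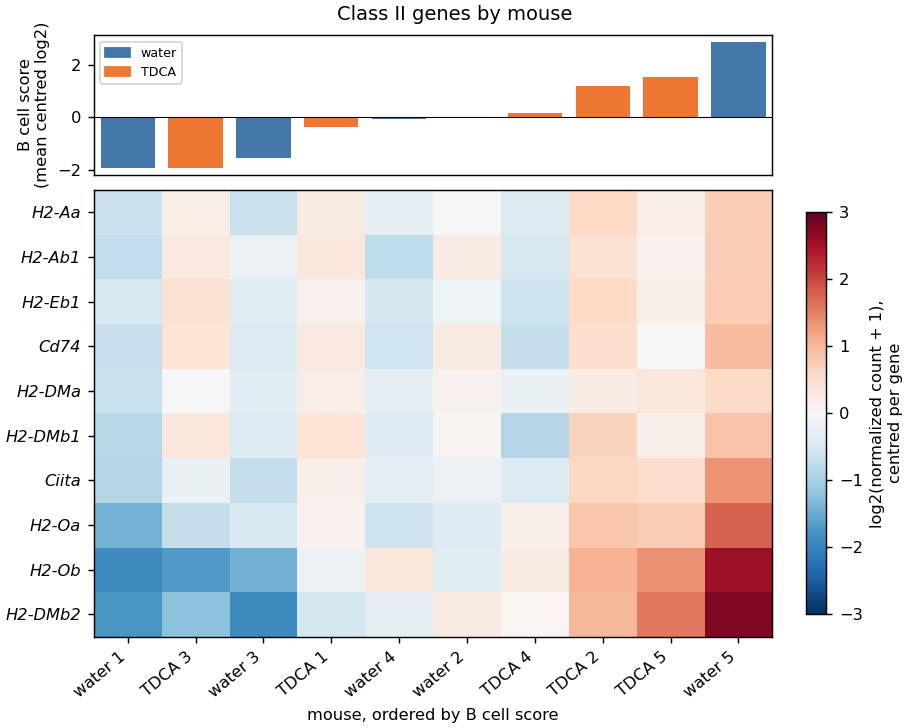
B cell score (bars, top) and log2 level centred per gene (colours, bottom) of the 10 genes in 10 mice ordered by that score. Water and TDCA mice are mixed along the order, with water 1 lowest and water 5 highest, and H2-Oa, H2-Ob and H2-DMb2 show the widest range of colour.

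With the B cell score as a covariate the standard error of the treatment effect went from 0.86 to 0.17 for H2-Ob and from 0.88 to 0.22 for H2-DMb2, and from 0.32 to 0.29 for Cd74. The log2 fold changes were then 0.10 for H2-Ob (95% interval −0.27 to 0.46) and 0.11 for H2-DMb2 (−0.37 to 0.58), still with 0 of 10 genes called. H2-Eb2 (ENSMUSG00000067341), a further β chain gene added after its values were seen, ranged from 5.24 to 280.3 normalized counts with its highest value in water 5.

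**Figure D5:**
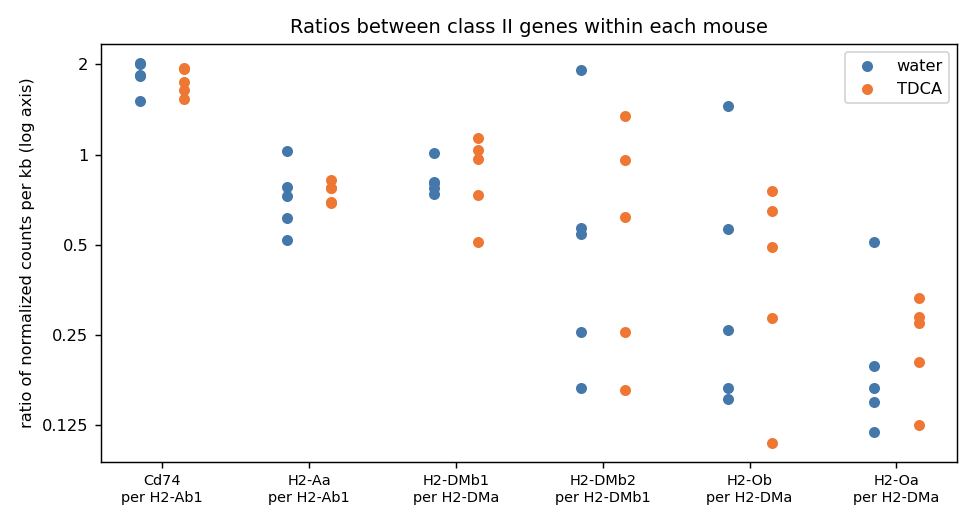
Ratio of normalized counts per kilobase between pairs of class II genes (vertical axis, log scale) in each mouse, by treatment. Cd74 per H2-Ab1 stays between 1.51 and 2.02, while H2-DMb2 per H2-DMb1 runs from 0.164 to 1.92.

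Scores of dendritic cells, which present antigen to naive T cells, and of T cells were compared with the 10 genes in the same way. The dendritic cell score was taken over Itgax, Flt3, Zbtb46, Xcr1, Clec9a, Itgae and Ccr7. Whether other cells of the ileum carried these markers was not tested. H2-Eb1 had r = 0.90 with the dendritic cell score (permutation p = 0.00051, adjusted p = 0.00547; rho = 0.88, permutation p = 0.00171), and r = 0.79 without water 5 and TDCA 2, the mice farthest from its median. H2-Aa (r = 0.79), H2-DMb1 (r = 0.79) and Cd74 (r = 0.78) passed on Pearson's r after adjustment (permutation, adjusted p = 0.0436, 0.0436 and 0.0477), and without those 2 mice r was 0.52, 0.57 and 0.56. On Spearman's rho H2-DMb1 passed (0.84, adjusted permutation p = 0.031), and H2-Aa (0.72, adjusted p = 0.111) and Cd74 (0.81, adjusted p = 0.0502) did not. H2-Ab1 passed on rho (0.84, adjusted permutation p = 0.031) and not on r (0.76, adjusted p = 0.0547). The T cell score gave H2-Ab1 and Cd74 an r of 0.78 each (adjusted permutation p = 0.0436 for both), and 0.65 and 0.62 without water 5 and TDCA 1, while rho did not pass for either (adjusted p = 0.0692 and 0.171). Whether a gene's correlation with one score differs from that with the other was not tested.

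The germinal centre and follicle score passed on Pearson's r for 5 genes: H2-DMb2 (0.96), H2-Ob (0.91), H2-Oa (0.86), Ciita (0.85) and H2-DMa (0.77). On Spearman's rho the first 3 of these passed, and Ciita (adjusted permutation p = 0.0561) and H2-DMa (adjusted p = 0.0502) did not. The macrophage score had r of 0.09 to 0.65, the group 3 innate lymphoid score 0.29 to 0.72, the epithelial score −0.45 to 0.02 and the smooth muscle score 0.26 to 0.59, and 0 of 10 genes passed for each. Without water 1 and water 3, the mice farthest from its median, the smooth muscle score had r of −0.25 to −0.06. Between treatments, 0 markers of these lists were called. Among 7 dendritic cell markers tested, 5 were above 0, with Clec9a at 0.48 (SE 0.22), Xcr1 at 0.78 (SE 0.39) and Itgax, the most abundant, at −0.18 (SE 0.23). Among 8 macrophage markers 6 were above 0, with the growth factor receptor gene Csf1r at 0.36 (SE 0.18), Cx3cr1 at 0.29 (SE 0.19) and Mertk at 0.02 (SE 0.19). Of 5 plasma cell markers 3 were above 0, with the antibody joining chain gene Jchain at 0.53 (SE 0.28) and Derl3 at 0.89 (SE 0.60). Of 7 T cell markers 3 were above 0, with Trac at 0.33 (SE 0.53) and Cd8a at −0.16 (SE 0.34). Of 3 innate lymphoid markers tested 2 were above 0, Kit with 0.51 (SE 0.19) and Il7r with 0.09 (SE 0.37). Of 6 germinal centre and follicle markers tested 3 were above 0 and 3 below (median 0.04), and the proliferation gene Mki67 had −0.38 (SE 0.18) and Bcl6 −0.17 (SE 0.17), and Fdcsp was not analysed here.

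Upstream of Ciita, interferon gamma signalling gave no call. Ifng itself was at 0 in 7 of 10 libraries, all 5 water mice among them, and its highest value was 3.50 normalized counts, in TDCA 1. Of 8 tested genes of the pathway 7 had a log2 fold change below 0, with a median of −0.08 and 0 called. Ifngr2, a receptor chain, had −0.29 (SE 0.12), the phosphatase gene Ptpn2 −0.21 (SE 0.12) and the kinase gene Jak2 −0.08 (SE 0.18). Of 15 other genes that interferon gamma induces, 12 were above 0 (median 0.26, 0 called). The GTPase gene Gbp7 averaged 488 ± 88.4 in TDCA against 372 ± 135 normalized counts in water mice, Gbp3 383 ± 92.0 against 284 ± 120, and the peptide transporter gene Tap2 555 ± 18.2 against 594 ± 161 (SD, n = 5 each). The score of these 15 genes had r of 0.30 to 0.66 with the class II genes, and 0 of 10 passed after adjustment.

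Genes that act with class II also gave 0 calls, and of all pathway and immune lists Ifi30, Ifngr2, Mki67 and Kit alone had an unadjusted p under 0.05 in limma. Of all genes tested, 11% had such a p. Of the 7 promoter factors 4 were below 0 (median −0.11), with Nfyc at −0.17 (SE 0.09), Rfxank at −0.16 (SE 0.10) and Creb1 at 0.11 (SE 0.11). Their summed level stayed between 3951 and 4823 normalized counts over all mice. Of the 10 genes of lysosomal antigen processing 6 were below 0 (median −0.07). Ifi30, which reduces disulfide bonds of antigens in the lysosome, averaged 672 ± 138 in TDCA against 907 ± 116 normalized counts in water mice (log2 fold change −0.45, SE 0.15, limma adjusted p = 0.448), Ctsl 1465 ± 235 against 1162 ± 346, and Ctsb 6437 ± 702 against 6226 ± 194 (SD, n = 5 each). Among turnover genes, the ubiquitin ligase genes Marchf8 and Marchf1 had −0.16 (SE 0.15) and 0.12 (SE 0.38). Among 7 tested genes of receptors and costimulation 5 were above 0, with Cd80 at 0.48 (SE 0.32), the co-receptor gene Cd4 at 0.25 (SE 0.24) and Icosl at 0.08 (SE 0.17).

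Among 13197 other genes averaging 50 normalized counts or more, those most like the mean of the 10 class II genes across the 10 libraries were Ikzf1 (r = 0.98), which encodes a lymphoid transcription factor, Rcsd1 (0.98), Fermt3 (0.97), an integrin activator gene of blood cells, Bin1 (0.97) and Zfp831 (0.97). They share libraries and size factors with the class II genes and were the highest of 13197 values, so the figures describe these mice. Ikzf1 ranged from 66.1 to 423 normalized counts. The log2 fold changes between treatments of the 5 genes ran from 0.14 to 0.42, and 0 were called.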

How the data were processed

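The submitters' processing notes name DESeq2 1.28.0, MultiQC 1.9 and GRCm39, and the sources used here give no aligner, counter or annotation. The authors deposited normalized counts, here called a signal: reads over 1 size factor per library. Within 1e-04, 100% of values were whole multiples of a library's smallest value above 0, so whole reads were recovered. The authors' deposited comparison holds, per the file headers, a mean signal, log2 fold changes, a score (the Wald statistic) and p-values with adjusted p-values; its columns of group values were not used.

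Limma-trend (limma 3.58.1 under R 4.3.3, robust moderation) was fitted to log2(normalized count + 1) over 17507 genes, two-sided, with Benjamini-Hochberg adjustment at 0.05. Such fold changes understate the change of low genes. The edgeR quasi-likelihood test (4.0.16) and DESeq2 (1.42.0) were run on whole reads as alternatives. Limma, edgeR and DESeq2 were first tested on simulated data. Permutation tests were two-sided, with 100000 resamples. Lengths came from GENCODE M21. Floors cover counting error only.

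The 10 genes and the lists were chosen with earlier results of these data known. Named were the 10 genes, the 2 genes of smallest p and the gene of highest mean in each list, and the 5 genes most like the 10 in mean level; a few genes under this rule are not reported here.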

Additional observations from a re-analysis of the deposited data

Results flagged for a closer look

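Dixon's 95% criterion was applied to 42 groups of 5 mice, 20 of single genes and 22 of ratios. It was applied on the linear scale, and 8 values stood apart from the rest of their group. The rate of about 1 flag in 20 by chance assumes normally distributed values. Log2 values were not examined in this way, so the flags cannot tell an outlying mouse from a skewed spread. All 8 were water 5, and they are not independent, since the genes and ratios share that library. The single genes were H2-Eb1 (2336 normalized counts), Ciita (674), H2-DMb2 (381), H2-Oa (73.8) and H2-Ob (516). The ratios of levels per kilobase were H2-DMb2 to H2-DMb1 (1.92), H2-Oa to H2-DMa (0.510) and H2-DMb1 to H2-DMa (1.01). The B cell markers summed to 4471 normalized counts in water 5 and to 149 to 1868 in the other 9 mice. Without water 5 the median log2 fold change of the 10 genes was 0.55, and 0 were called.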

How the results depend on the processing

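Under 23 alternatives, 0 of the class II genes were called in each (smallest adjusted p = 0.465), and 0 genes of the other lists. H2-Oa had no adjusted p in DESeq2 and was not tested under the filter of 50. Over all genes 0 were called in each except DESeq2, which called 25. The alternatives were pseudocounts of 0.5 and 8, no filter, a filter of 50 (9 genes left), TMM and quantile scaling, edgeR, DESeq2, the replicate block, smooth muscle and B cell covariates, each library left out, both water 1 and TDCA 5 left out, and an adjusted p under 0.10. Of 229 values for single genes 214 kept their sign and 15 turned, and the cause was not tested. No filter, the filter of 50, the replicate block and the looser threshold leave the log2 fold changes of the main fit unchanged. Their values could not turn, yet they are counted among the 214. H2-DMb2 turned with edgeR (−0.43), DESeq2 (−0.42), the smooth muscle covariate (−0.60) and without water 1 and TDCA 5 (−0.40), and H2-Ob with the same (−0.29, −0.28, −0.57 and −0.41). Ciita turned with the muscle covariate (−0.033) and without water 1 and TDCA 5 (−0.00051), and H2-DMa with the covariate (−0.0050). With 1 library left out, H2-DMb2 ran from −0.0905 to 1.08, turning without water 1 (−0.05), water 3 (−0.0905) or TDCA 5 (−0.01), and H2-Ob from −0.11 to 1.00, turning without water 1. The median ran from 0.10 to 0.55. The median over all genes was −0.01 in limma, −0.0088 under TMM and −0.015 under quantile scaling.

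With the replicate block 0 genes were called and the median was 0.28. Nothing in the labels says that a number marks a shared litter, cage or day, and the numbers did not pair the mice: same-numbered libraries had correlations of −0.15 to 0.17 between their deviations from the group means, and 1 of 5 water libraries correlated best with its own number. The sample titles carry a second numbering, in which 3 numbers occur in both groups, and those 3 pairs had correlations of −0.14 to 0.27. H2-Oa, at 7.21 normalized counts in water 1, is the gene most limited by depth.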
